A study of Saccharomyces cerevisiae with 8 samples.

Results

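Hsp26 and Hsp42 are the small heat-shock proteins of budding yeast, which bind unfolding proteins and keep them in a form from which they can be refolded. Hsp104 in the cytosol and Hsp78 in mitochondria are ring-shaped disaggregases that pull proteins out of aggregates together with Hsp70 chaperones, and Btn2 sorts misfolded proteins into deposits. Hsp12, Gre1, Sip18 and Stf2 are hydrophilins or related small hydrophilic proteins linked to desiccation and osmotic stress, and Hsp30 is a stress-induced protein of the plasma membrane. The heat shock factor Hsf1 and the general stress factors Msn2 and Msn4 are known activators of most of these genes, many of which are induced by heat, starvation or entry into stationary phase. The rows of the read count table that carry these 10 gene names were taken, 10 of 6596 gene models. They were named with the fold changes of mcd1-1 against WT in view, so the fold changes and calls of the 10 genes describe the values that chose them, and no p-value is given for them.

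The samples were 4 libraries of wild type (WT) and 4 of mcd1-1, lettered A to D in each group, of poly(A) RNA from budding yeast. Both are derivatives of W303-1a, a laboratory haploid with the a mating type, and were grown in the rich glucose medium YPD at 31 °C, from an optical density of 0.2 for 2 generations into log phase. The groups differ in MCD1, which encodes the kleisin subunit of the cohesin ring, and the mcd1-1 allele is known as a temperature-sensitive mutation. The labels do not say whether the 4 libraries of a group came from separate cultures or what the letters stand for, so the spread between libraries may be technical. Totals were 22331070 to 58506447 counts per library, and the lowest count of any of the 10 genes in any library was 16. A count of 0 would allow up to 3 counts, for counting error only. By library size alone, without TMM scaling, that is 0.0513 to 0.134 per 1000000 counts. Elsewhere in this text CPM means counts per 1000000 counts after TMM scaling.

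In both genotypes libraries A and B stood apart from C and D. Deviations from the group mean over 6558 genes were positively correlated between WT and mcd1-1 libraries of the same letter (0.452 to 0.633), about as strongly between A and B or C and D (0.490 to 0.653), and negatively across (-0.643 to -0.448). The 4 deviations of a gene sum to 0 within a group, so the negative values largely follow from the positive ones. What separates A and B from C and D is not given, so the fold changes of the 10 genes are also given within A and B and within C and D. The same was done for some other named genes whose values differed between the sides. All 6 markers of a cells were present (summed level 980 to 1167 CPM in WT and 683 to 970 CPM in mcd1-1), of which AGA2 rose (0.55 ± 0.15, edgeR adjusted p = 0.016) and 5 were not called. The 4 markers of alpha cells summed to 35.7 to 45.9 CPM in WT and 108 to 146 CPM in mcd1-1, where 3 of the 4 rose. The 6 markers of sporulating cells summed to 74.4 to 83.9 CPM in WT and 155 to 226 CPM in mcd1-1, where 4 of the 6 rose. Over all genes tested 20.7% were called higher and 19.7% lower. None of these markers was at 0 in any library, and their part in the results below was not tested.

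HSP12, HSP26, GRE1 and SIP18 were 14.6- to 23.4-fold higher in mcd1-1 and were called higher, that is with an adjusted p under 0.05 in edgeR's quasi-likelihood test over all genes. HSP42, HSP104, HSP78 and BTN2 were above WT within A and B and again within C and D, by 1.32- to 9.67-fold, but were not called with all 8 libraries, and HSP30 and STF2 were near or below the WT level. In such bulk RNA, a larger share of cells expressing a gene and more RNA per cell cannot be told apart. The 4 calls of 10 stand beside 20.7% of the 6558 genes tested called higher, 19.7% called lower and 40.4% called either way, and nothing is read from the count because the genes were chosen on this contrast. Of the called genes 51.3% were higher, but 65.5% with upper-quartile scaling and 81.7% with library size alone. These scalings moved the median over all genes, in log2 fold change, from -0.01 to 0.13 and 0.33, and the fold changes here are relative to that median. The median of the 10 genes was 1.50. With the replicate letter as a block 8 of the 10 were called higher and 1 lower, beside 29.4% and 30.2% of all genes.

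**Figure D1:**
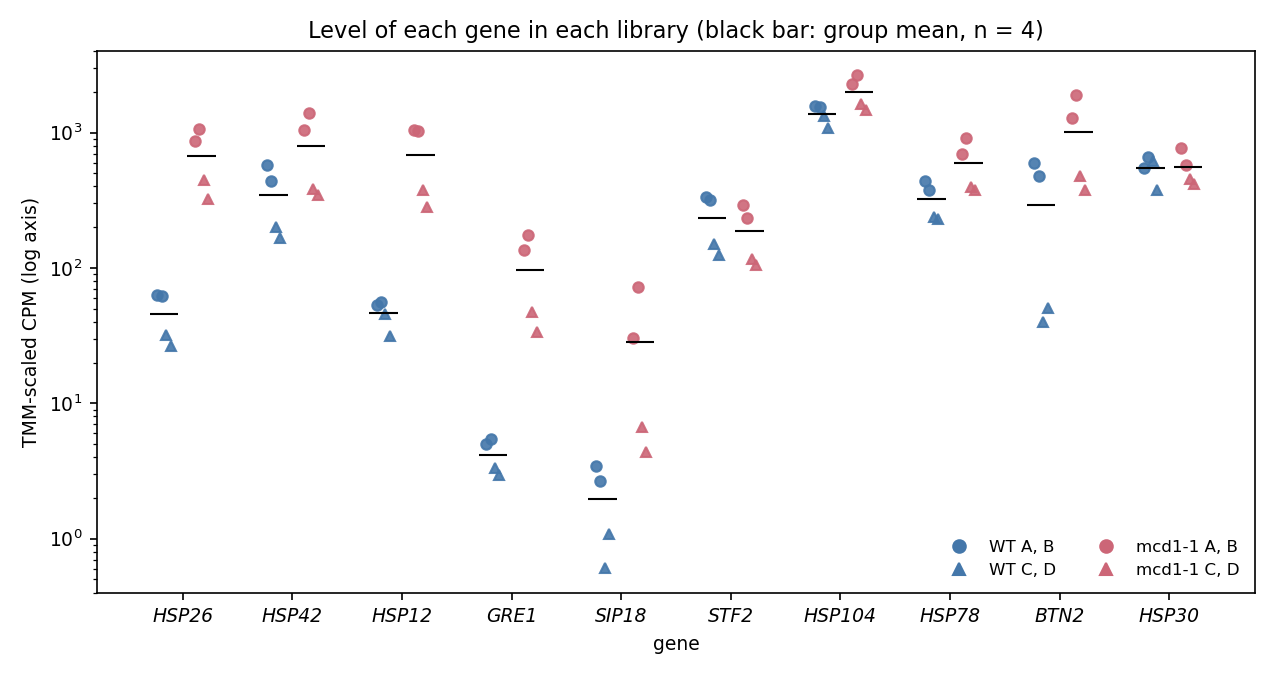
TMM-scaled CPM of the 10 genes in each library on a log axis, with circles for libraries A and B, triangles for C and D, blue for WT, red for mcd1-1 and a black bar at the mean of 4 libraries. HSP26, HSP12, GRE1 and SIP18 have all mcd1-1 libraries above all WT libraries, and the circles lie above the triangles in nearly every group.

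The upstream sequence of the genes was read from the RefSeq genome of build R64, the build that the submitters' processing notes name, in which all 10 genes have the coordinates of the count table. The window ran from 400 to 101 bases before the start codon (300 bases). Motifs were searched on both strands. The stress response element (STRE) bound by Msn2 and Msn4 was taken as AGGGG or its reverse CCCCT, and the heat shock element (HSE) bound by Hsf1 as NTTCNNGAANNTTCN or NGAANNTTCNNGAAN, that is 3 blocks of alternating direction. An HSE was found in 4 of the 10 windows, those of HSP42, HSP104, HSP78 and BTN2, and in 1.08% of 6001 windows of the same length upstream of RefSeq protein-coding genes. Each of the 4 windows held 2 overlapping HSE matches, which together make 4 blocks, as 0.25% of all windows held at least 2. A STRE was found in 7 of the 10 windows and in 23.5% of all windows. HSP12, HSP42, HSP104 and HSP78 each had 3 STREs, as 0.817% of all windows had at least 3, SIP18 and STF2 had 2 and HSP26 had 1, and those of GRE1, BTN2 and HSP30 held none. With the longer form AAGGGG or CCCCTT the number fell from 7 to 3 windows (HSP26, HSP104 and SIP18), beside 10.9% of all windows. A match is a run of letters and not a measured site, and no match says only that these letters are not in this window.

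The 6 windows below are those with an HSE and those of the genes with the largest fold change over all 8 libraries (GRE1) and the smallest (STF2). They are written 5′ to 3′ on the strand of the gene, and capitals mark the HSE and STRE letters.
HSP104, chrXII:88223-88522, plus strand: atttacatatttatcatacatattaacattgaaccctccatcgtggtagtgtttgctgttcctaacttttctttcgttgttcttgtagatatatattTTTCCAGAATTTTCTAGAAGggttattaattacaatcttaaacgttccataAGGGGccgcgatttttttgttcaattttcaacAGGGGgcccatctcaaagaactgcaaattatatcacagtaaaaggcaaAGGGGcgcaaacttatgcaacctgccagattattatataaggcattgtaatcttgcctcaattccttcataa
HSP78, chrIV:974344-974643, minus strand: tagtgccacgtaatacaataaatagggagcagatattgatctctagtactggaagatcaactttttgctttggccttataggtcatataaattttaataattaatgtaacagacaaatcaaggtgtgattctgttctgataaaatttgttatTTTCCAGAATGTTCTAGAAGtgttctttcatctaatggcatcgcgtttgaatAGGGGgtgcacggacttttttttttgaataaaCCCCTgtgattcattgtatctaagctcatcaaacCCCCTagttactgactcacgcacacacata
HSP42, chrIV:806221-806520, plus strand: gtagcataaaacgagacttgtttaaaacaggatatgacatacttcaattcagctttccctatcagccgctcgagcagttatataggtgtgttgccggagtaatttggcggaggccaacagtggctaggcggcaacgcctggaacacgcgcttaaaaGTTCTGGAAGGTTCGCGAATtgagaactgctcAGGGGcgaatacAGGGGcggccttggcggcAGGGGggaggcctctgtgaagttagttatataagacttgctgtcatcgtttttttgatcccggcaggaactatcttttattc
BTN2, chrVII:772054-772353, plus strand: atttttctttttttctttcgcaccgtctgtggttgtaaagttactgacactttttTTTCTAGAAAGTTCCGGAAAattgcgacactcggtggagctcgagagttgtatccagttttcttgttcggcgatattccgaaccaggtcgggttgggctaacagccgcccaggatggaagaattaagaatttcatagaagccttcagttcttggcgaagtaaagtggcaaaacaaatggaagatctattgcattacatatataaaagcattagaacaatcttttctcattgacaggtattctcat
GRE1, chrXVI:129239-129538, minus strand: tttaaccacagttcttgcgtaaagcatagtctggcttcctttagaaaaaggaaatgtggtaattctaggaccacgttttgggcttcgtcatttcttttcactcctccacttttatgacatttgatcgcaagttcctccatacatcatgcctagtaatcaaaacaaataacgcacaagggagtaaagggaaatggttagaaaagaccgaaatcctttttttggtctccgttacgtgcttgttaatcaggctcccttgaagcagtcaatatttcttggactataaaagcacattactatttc
STF2, chrVII:508465-508764, minus strand: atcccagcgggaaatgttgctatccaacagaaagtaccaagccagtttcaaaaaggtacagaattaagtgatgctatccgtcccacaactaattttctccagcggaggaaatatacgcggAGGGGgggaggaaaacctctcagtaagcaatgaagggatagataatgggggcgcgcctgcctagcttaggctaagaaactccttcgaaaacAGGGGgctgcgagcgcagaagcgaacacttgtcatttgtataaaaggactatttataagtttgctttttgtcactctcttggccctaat
In HSP104, HSP78 and HSP42 the HSE lies farther from the start codon than all 3 STREs, at 303, 248 and 244 bases, whereas the HSE of BTN2 begins 345 bases before the start codon and has no STRE beside it.

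**Figure D2:**
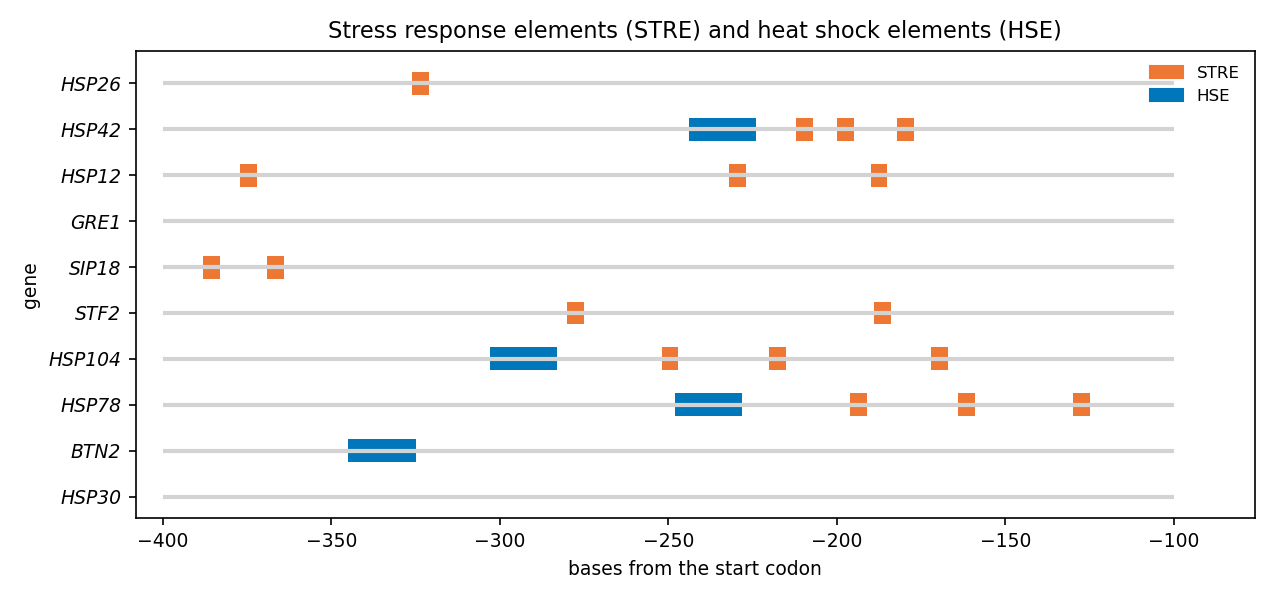
Position of STREs (orange) and HSEs (blue) in the window from 400 to 101 bases before the start codon of each gene, drawn as grey lines, with the distance in bases on the x axis. HSEs are in 4 genes, HSP42, HSP104, HSP78 and BTN2, and STREs in 7, with neither in GRE1 or HSP30.

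The small heat-shock gene HSP26 (YBR072W, chrII:382030-382674, plus strand) was at 63.4, 61.6, 32.1 and 26.4 CPM in WT A to D and at 866, 1067, 446 and 325 CPM in mcd1-1 A to D. The lowest mcd1-1 library stood above the highest WT library, and in both genotypes A and B were the higher libraries. Its mean went from 45.9 ± 19.4 CPM (SD, n = 4) to 676 ± 349 CPM, and its log2 fold change was 3.88 ± 0.47 (SE), or 14.7-fold. Within A and B it was 3.95 and within C and D 3.76.

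HSP42 (YDR171W, chrIV:806621-807748, plus strand), the more abundant small heat-shock gene in WT, which also helps to collect misfolded proteins into cytosolic deposits, was at 572, 436, 200 and 167 CPM in WT A to D. In mcd1-1 A to D it was at 1050, 1384, 383 and 348 CPM. WT A and B lay above mcd1-1 C and D, so the groups overlapped, although mcd1-1 exceeded WT within A and B and within C and D. The log2 fold change was 1.20 ± 0.54 with all libraries, 1.27 within A and B and 1.03 within C and D.

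Among the hydrophilins, HSP12 (YFL014W, chrVI:107256-107585, plus strand), a small membrane-associated stress protein, was at 53.6, 56.2, 45.6 and 31.4 CPM in WT A to D and at 1042, 1028, 374 and 283 CPM in mcd1-1 A to D. The groups did not overlap. Its mean of 46.7 ± 11.2 CPM in WT and 682 ± 409 CPM in mcd1-1 (SD, n = 4) gave a log2 fold change of 3.87 ± 0.48. It was 18.8-fold higher in mcd1-1 within A and B and 8.83-fold within C and D.

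GRE1 (YPL223C, chrXVI:128632-129138, minus strand), a hydrophilin induced by osmotic stress, was at 4.97, 5.42, 3.33 and 2.98 CPM in WT A to D and at 135, 174, 47.1 and 33.4 CPM in mcd1-1 A to D. Over all 8 libraries it had the largest fold change of the 10 genes, a log2 value of 4.55 ± 0.57 or 23.4-fold, without overlap of the groups. Within A and B GRE1 was 29.6-fold higher (4.89) and within C and D 13.1-fold (3.71), where HSP26 (3.76) was slightly above it. Its paralog SIP18 (YMR175W, chrXIII:611016-611255, plus strand) was at 3.47, 2.67, 0.606 and 1.08 CPM in WT A to D and at 30.6, 72.2, 6.69 and 4.40 CPM in mcd1-1 A to D. The groups of SIP18 did not overlap either, but mcd1-1 B was far above the other mcd1-1 libraries, and SIP18 had the lowest level and the widest spread of the called genes. Its log2 fold change of 3.90 ± 0.95 was 2.9 without mcd1-1 B, and limma-voom did not call it. Within A and B it was 4.07, or 16.8-fold, and within C and D 2.62, or 6.16-fold.

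STF2 (YGR008C, chrVII:508110-508364, minus strand), whose protein stabilises the inhibited form of the ATP synthase and is needed for tolerance of drying, was at 336, 319, 150 and 125 CPM in WT A to D and at 290, 232, 116 and 106 CPM in mcd1-1 A to D. The groups overlapped, and mcd1-1 lay below WT within A and B and within C and D. The log2 fold change was -0.32 ± 0.42. It was 0.03 with library size alone, so its direction depends on the scaling, and the replicate block called it lower.

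The cytosolic disaggregase HSP104 (YLL026W, chrXII:88623-91349, plus strand) was the most abundant of the 10 in CPM. It was at 1571, 1534, 1317 and 1086 CPM in WT A to D and at 2289, 2645, 1618 and 1465 CPM in mcd1-1 A to D. Only mcd1-1 D fell within the WT range. The log2 fold change was 0.54 ± 0.23, with 0.67 within A and B, 0.40 within C and D and 0.89 with library size alone. Its mitochondrial counterpart HSP78 (YDR258C, chrIV:971808-974243, minus strand) was at 440, 376, 237 and 231 CPM in WT A to D and at 700, 906, 396 and 375 CPM in mcd1-1 A to D, and WT A and B overlapped mcd1-1 C and D. HSP78 had a log2 fold change of 0.89 ± 0.34, with 0.97 within A and B and 0.75 within C and D.

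BTN2 (YGR142W, chrVII:772454-773686, plus strand) had the least even WT level of the 10 genes. It was at 595, 479, 40.2 and 50.3 CPM in WT A to D and at 1282, 1903, 479 and 379 CPM in mcd1-1 A to D. WT A and B were at or above mcd1-1 C and D, and WT C and D were far below every other library, with a mean of 537 CPM in WT A and B against 45.3 CPM in WT C and D (11.9-fold). The log2 fold change was 1.80 ± 0.90 with all libraries, but 1.57 within A and B and 3.27 within C and D, or 2.96- and 9.67-fold. It was the only gene of the 4 with an HSE whose difference was larger within C and D.

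HSP30 (YCR021C, chrIII:156109-157107, minus strand), a stress-induced regulator of the plasma membrane proton pump, was at 543, 658, 617 and 375 CPM in WT A to D and at 771, 573, 454 and 420 CPM in mcd1-1 A to D. The groups overlapped, also within A and B and within C and D. The log2 fold change was 0.02 ± 0.25, with 0.16 within A and B, -0.15 within C and D and 0.36 with library size alone.

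**Figure D3:**
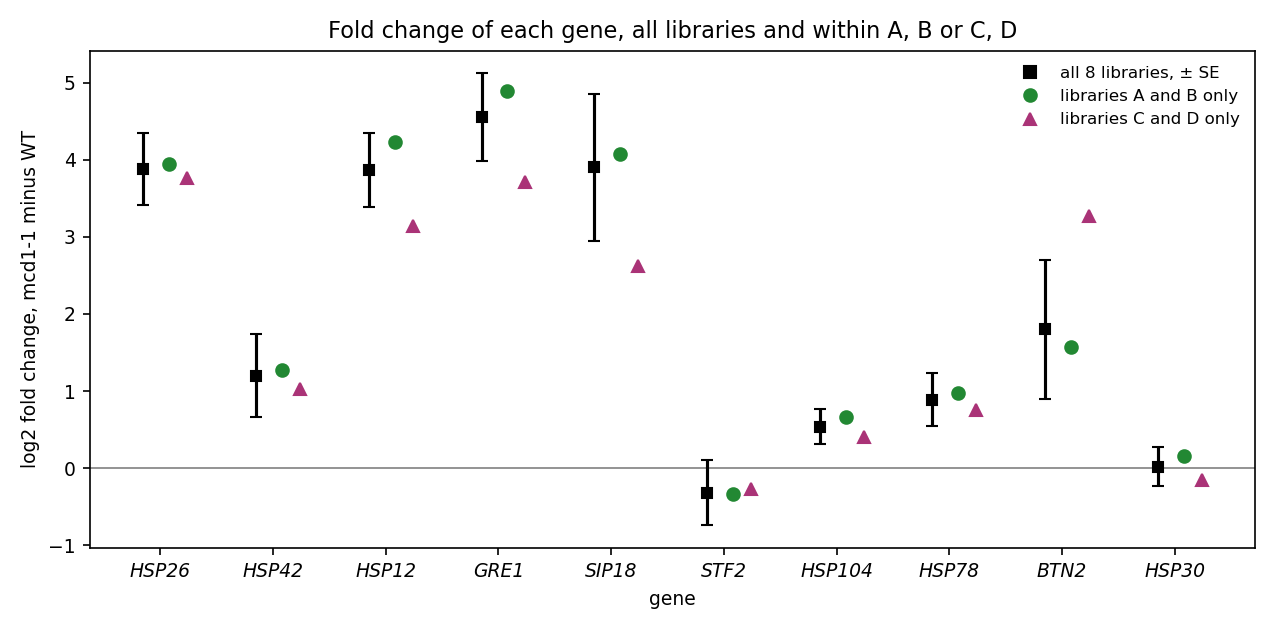
Log2 fold change of mcd1-1 minus WT for each gene, with squares and SE bars for all 8 libraries, circles for libraries A and B and triangles for C and D. The squares of HSP26, HSP12, GRE1 and SIP18 lie between 3.87 and 4.55. Their circles and triangles run from 2.62 (SIP18, C and D) to 4.89 (GRE1, A and B). BTN2 is higher within C and D (3.27) than within A and B (1.57).

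Across the 10 genes, the lowest mcd1-1 library exceeded the highest WT library in 4 (22.1% of all genes), the reverse held in 0 (21.0%) and the groups overlapped in 6. Within A and B and again within C and D, mcd1-1 lay above WT without overlap in 8 of the 10 genes (33.7% of all genes) and below in 1, STF2 (34.1%). These shares are printed as background and nothing is read from them. Together the 10 genes took 0.189 to 0.373% of the counts of a WT library and 0.414 to 1.21% of those of an mcd1-1 library. HSP104 made up 37.6 to 51.8% of their counts in WT and 26.5 to 39.2% in mcd1-1.

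The order of levels was compared per kb of the gene span in the count table, since the genes differ in length. In WT the order of mean CPM per kb was STF2 (910), HSP30 (549), HSP104 (505), HSP42 (305), BTN2 (236), HSP12 (142), HSP78 (132), HSP26 (71.1), GRE1 (8.24) and SIP18 (8.14). Among neighbours in this order, only HSP26 and GRE1 had ranges over the 4 libraries that did not overlap. In mcd1-1 the order was HSP12 (2066), HSP26 (1048), BTN2 (820), HSP104 (735), STF2 (730), HSP42 (701), HSP30 (555), HSP78 (244), GRE1 (192) and SIP18 (119), and the only neighbours without overlap were HSP30 and HSP78. HSP12 thus stood at the sixth place in WT and at the first in mcd1-1, and GRE1 and SIP18 were at the end in both. Parts of this order depended on the libraries. BTN2 was at the fifth place in WT A and B (436 CPM per kb) but at the eighth in WT C and D (36.7 CPM per kb), where HSP12 was the fifth, and BTN2 went from the third place in mcd1-1 A and B to the sixth in mcd1-1 C and D. On either side of the division STF2 was first in WT, HSP12 first in mcd1-1, and GRE1 and SIP18 took the last places.

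The division between libraries A and B and libraries C and D was known when the genes were chosen, so its values are a description too. In WT both A and B lay above both C and D for 9 of the 10 genes, HSP30 being the exception, beside 46.0% of all genes. In mcd1-1 this held for all 10 genes, beside 38.2% of all genes. The median difference, A and B minus C and D in mean log2 CPM, was 0.95 for the 10 genes in WT and 1.50 in mcd1-1, against 0.04 and 0.01 over all genes. It was largest for BTN2 in WT (3.57) and for SIP18 in mcd1-1 (3.10), and smallest for HSP30 (0.31 and 0.61) and HSP104 (0.38 and 0.68). The SD of log2 CPM within a group had a median of 0.56 in WT and 0.89 in mcd1-1 for the 10 genes, against 0.27 and 0.25 for all genes, and was above the median of all genes for 9 of the 10 in WT and for all 10 in mcd1-1.

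**Figure D4:**
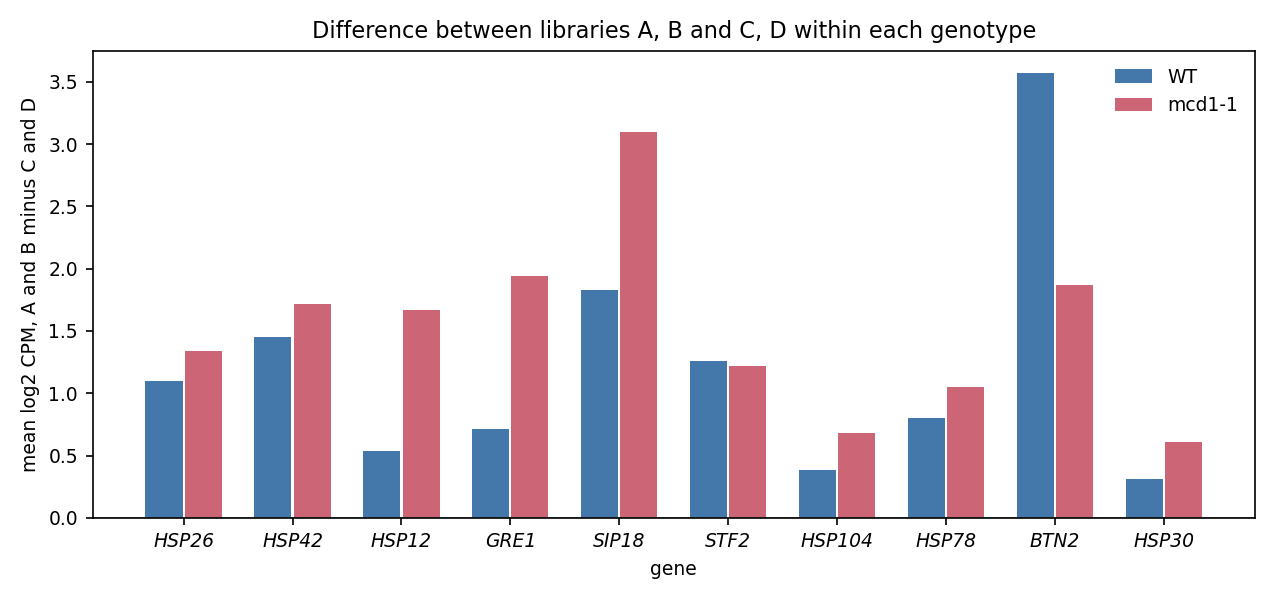
Difference in mean log2 CPM between libraries A and B and libraries C and D for each gene, in WT (blue) and in mcd1-1 (red). All bars are above 0, with BTN2 at 3.57 in WT and SIP18 at 3.10 in mcd1-1 as the tallest.

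The Hsf1 and Msn2/4 programmes around these genes were described by lists that leave the 10 out, and their counts stand against 20.7% of all genes called higher and 19.7% lower, or 29.4% and 30.2% with the replicate block. These lists and those further below were chosen with earlier results of these data known, so their counts and adjusted p-values are a description. Of 20 other chaperone genes under Hsf1, 2 rose, 3 fell and 15 were not called, with a median log2 fold change of 0.10 against -0.01 over all genes. The inducible Hsp70 gene SSA4 rose by 3.06 ± 0.53 (edgeR adjusted p = 0.0022), while the Hsp90 gene HSC82 (-0.71 ± 0.15, adjusted p = 0.0059), the Hsp40 gene YDJ1 (-0.55 ± 0.14, adjusted p = 0.014) and the Hsp90 regulator HCH1 (-0.49 ± 0.16, adjusted p = 0.033) fell. The other riser was HSP82, the heat-inducible Hsp90 gene (1.00 ± 0.33, adjusted p = 0.036), which shares 91.8% identity with HSC82, so that reads of both are uncertain. The groups of HSP82 overlapped, and it was not called without WT C, WT D, mcd1-1 A or mcd1-1 B. HSC82, YDJ1 and HCH1 were not called with library size alone, nor were YDJ1 and HCH1 with upper-quartile scaling, and HCH1, at -0.76 within A and B and -0.15 within C and D, was not called in 6 of the 8 fits that leave out 1 library. With the replicate block 7 of the 20 rose and 5 fell. Both A and B lay above both C and D for 16 of the 20 in WT and 13 in mcd1-1, beside 46.0% and 38.2% of all genes.

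Of 20 other stress genes under Msn2 and Msn4, 16 rose, 4 were not called and none had a negative log2 fold change, with a median of 1.38. MOH1 (2.24 ± 0.23, adjusted p = 0.00016), the glycogen debranching enzyme gene GDB1 (1.98 ± 0.20, adjusted p = 0.00016), UGX2 (2.03 ± 0.23, adjusted p = 0.00032) and the glycogen phosphorylase gene GPH1 (1.39 ± 0.20, adjusted p = 0.00086), whose model overlaps 2 others, had the smallest p. MOH1 was at 2.81 within A and B and 1.73 within C and D, and GDB1 at 2.44 and 1.61. Both A and B lay above both C and D for 9 of these 20 genes in WT and 18 in mcd1-1, beside 46.0% and 38.2% of all genes. The genes not called were TPS1 and TPS2 for trehalose synthesis, GSY2 for glycogen synthesis and PNC1 for nicotinamide breakdown. In the same upstream window a STRE was found in 18 of these 20 genes and an HSE in 1, against 6 and 10 of the 20 genes of the Hsf1 list. Over all windows the shares were 23.5% for a STRE and 1.08% for an HSE. Both lists were taken as known targets of the factors that bind these elements, so nothing is read from the contrast.

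**Figure D5:**
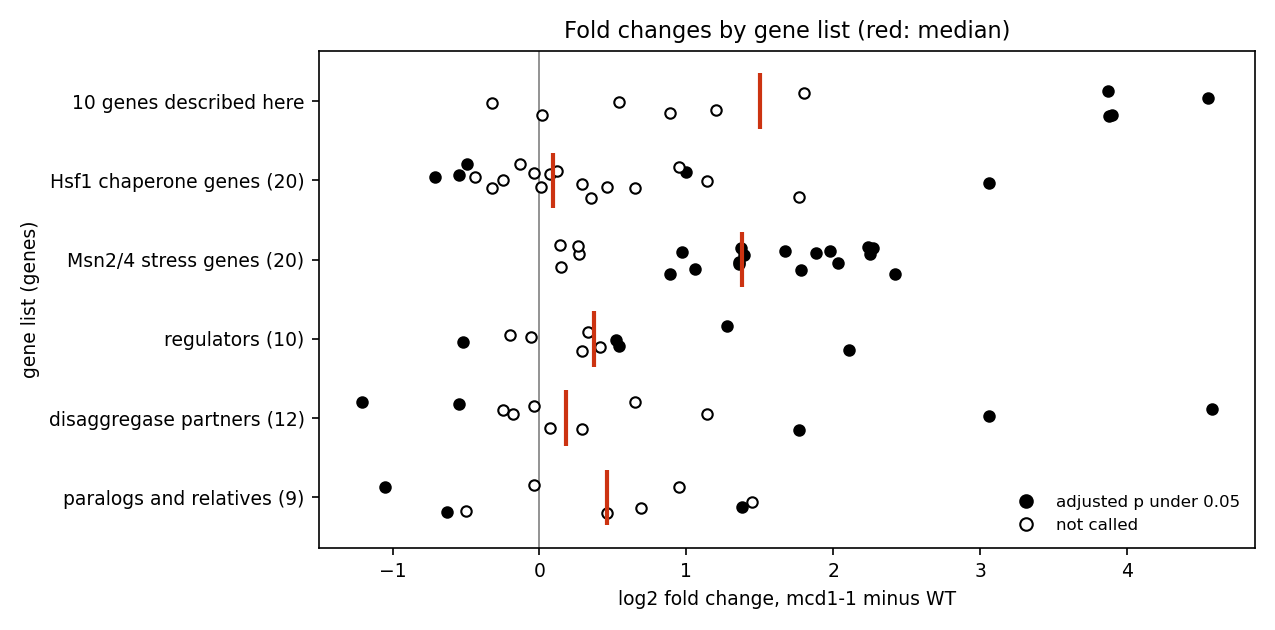
Log2 fold changes of mcd1-1 minus WT for the 10 genes and the 5 lists, with filled points for genes at an adjusted p under 0.05, open points for genes not called and a red line at the median. The Msn2/4 list has its median at 1.38 and 16 of 20 genes filled, the Hsf1 list its median at 0.10 and 5 filled.

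The regulators gave 4 higher, 1 lower and 5 not called of 10, against 20.7% and 19.7% of all genes. With the replicate block 4 were again higher and 1 lower, beside 29.4% and 30.2% of all genes. With the A/B and C/D division as a block 6 were higher, where 2207 of the 6558 genes tested were called higher. XBP1, a stress-induced repressor (2.11 ± 0.32, adjusted p = 0.0011), RIM15, the kinase of quiescence entry (1.28 ± 0.21, adjusted p = 0.0018), HSF1 itself (0.52 ± 0.14, adjusted p = 0.015) and GIS1, a factor acting after Rim15 (0.54 ± 0.18, adjusted p = 0.041), rose. HOG1, the kinase of the osmotic stress pathway, fell (-0.52 ± 0.14, adjusted p = 0.016). XBP1 was at 2.56 within A and B and 1.44 within C and D. MSN2 (0.29 ± 0.21, adjusted p = 0.28) and MSN4 (0.33 ± 0.20, adjusted p = 0.20) were not called with all 8 libraries. MSN2 was called higher within A and B (0.79, adjusted p = 0.00045), at -0.09 and not called within C and D, and called higher with library size alone (0.63, adjusted p = 0.039). MSN4 was called higher within C and D (0.53, adjusted p = 0.00027), with the division as a block (0.31, adjusted p = 0.04) and with library size alone (0.66, adjusted p = 0.016), but not within A and B (0.12). Within A and B alone 2287 of all genes were called higher and 2164 lower, and within C and D alone 2549 and 2436. Those fits use 2 libraries of each group, and library size alone called 2460 genes higher, so such calls say little by themselves. The model of HSF1 overlaps 2 others and whether the counting used strand is not stated. GIS1 was not called in 6 of the 8 fits that leave out 1 library, and HOG1 was not called without mcd1-1 C or with library size alone.

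The 12 partners of the disaggregases were Hsp70, Hsp40 and Hsp110 genes and others such as MGE1. Of these 3 rose and 2 fell, shares near the 20.7% and 19.7% of all genes. Some of the 12, SSA4 and YDJ1 among them, are in the Hsf1 list too. SSA3, an Hsp70 gene of stationary phase, went from 31.6 ± 5.74 to 754 ± 380 CPM (SD, n = 4), a log2 fold change of 4.58 ± 0.37 (adjusted p = 6.1e-05), with 5.25 within A and B and 3.79 within C and D. SSA4 and the Hsp110 gene SSE2 (1.77 ± 0.24, adjusted p = 0.00073; 2.11 within A and B and 1.36 within C and D) also rose. MGE1, the nucleotide exchange factor that works with mitochondrial Hsp70 beside Hsp78, fell by 1.21 ± 0.19 on the log2 scale (adjusted p = 0.0013), and was at -1.64 within A and B and -0.77 within C and D. YDJ1 was the other gene that fell. The constitutive Hsp70 genes SSA1 (0.29 ± 0.18) and SSA2 (-0.25 ± 0.24), near-identical copies of each other whose reads may be shared, were not called, though SSA1 was called higher with library size alone and SSA2 lower within C and D. With the replicate block 5 of the 12 rose, beside 29.4% of all genes.

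Of 9 paralogs and relatives of the 10 genes, 1 rose and 2 fell, beside 20.7% and 19.7% of all genes. The hydrophilin gene ROQ1 rose (1.38 ± 0.41, adjusted p = 0.025), though not in the 4 fits without WT C, WT D, mcd1-1 A or mcd1-1 B, and was at 1.6 within A and B and 0.93 within C and D. MRH1, a membrane protein related to Hsp30, fell from 1332 ± 69.3 to 642 ± 165 CPM (-1.05 ± 0.21, adjusted p = 0.0045), and YRO2, another relative of Hsp30, was not called (0.46 ± 0.23). INH1, the inhibitor of the ATP synthase with which Stf2 acts, fell (-0.63 ± 0.16, adjusted p = 0.014), but was not called with upper-quartile scaling or library size alone, and STF1, its relative, was not called (0.69 ± 0.26, adjusted p = 0.056). TMA10, the paralog of STF2 (1.45 ± 0.69), CUR1, the paralog of BTN2 (0.95 ± 0.35), and the hydrophilic-protein genes YNL190W (-0.04 ± 0.46) and NOP6 (-0.50 ± 0.25) were not called. With the replicate block 4 rose and 3 fell, CUR1, TMA10 and STF1 among the 4 and NOP6 among the 3. Over all genes that block called 29.4% higher and 30.2% lower.

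The genes with the most similar profile were found by the root mean square difference, over the 8 libraries, between log2 CPM values taken relative to each gene's own WT mean, among genes of at least 10 mean CPM. For HSP12 these were PHO92 (0.31), POT1, a thiolase of peroxisomal fatty acid breakdown (0.44), and HSP33 (0.47), which has near-identical copies. These had mean levels of 2.11, 5.75 and 2.37 CPM in WT and 30.5, 66.3 and 31.8 CPM in mcd1-1, so they reached 10 mean CPM only through mcd1-1. The distance includes the difference between the genotypes on which the 10 genes were chosen, and is a description. For HSP104 they were PEX13, of peroxisomal protein import (0.08), VHS2 (0.10) and YDL025W-A (0.10), a model that overlaps another. Within the 10 genes, HSP12 and HSP26 were each other's nearest (0.28), as were HSP104 and HSP78 (0.32), while BTN2 was 1.00 from its nearest, SIP18.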

How the data were processed

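The deposited table holds raw counts of reads per gene model, which the authors had not normalised; 4 of its lines were empty as received. Tools in the submitters' processing notes are featureCounts 1.6.0, STAR 2.5.3a, Trim Galore 0.4.3, bcl2fastq 2.9 and Picard, with build R64; the sources used here give neither the strand setting nor the handling of shared reads. Genes kept by filterByExpr (6558 of 6596) were scaled by TMM and tested in edgeR 4.0.16 (quasi-likelihood F test, 2-sided, group as the only term). Benjamini-Hochberg adjustment was made over all genes, with a threshold of 0.05. The fit was also run on simulated counts. These had no division between A and B and C and D, so that run says nothing about how the division affects the fit. SEs follow from the F statistic. Log2 CPM used a prior count of 2. None of the 10 genes overlaps another model or has a near-identical copy (90% identity over 100 bp, blastn 2.17.0).

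The members and lists were chosen with earlier results of these data known. Besides all 10 members, the text names the 4 genes of smallest p in the Hsf1, Msn2/4 and partner lists, HSF1, MSN2, MSN4 and the called regulators, all paralogs and relatives, and the 3 nearest profiles to HSP12 and HSP104. HSP82, SSA1, SSA2 and the uncalled Msn2/4 genes were named after their values were seen.

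Libraries of the same letter deviated together (0.452 to 0.633), so the letters were taken as pairs in the replicate block, from these correlations and not from the labels. Different letters on the same side of the division deviated together about as strongly (0.49 to 0.653). The correlations thus show the division and not a pairing by letter. Other settings were DESeq2 1.42.0, limma-voom (limma 3.58.1), RLE, upper-quartile and library-size scaling, no low-count filter, the A/B and C/D division as a block or each side alone, and leaving out each library. Protein sequences were not used here.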

Additional observations from a re-analysis of the deposited data

Results flagged for a closer look

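Within the groups of 4 libraries, 3 of 144 gene and group combinations had a lowest library set off from the other 3 by Dixon's criterion at the 95% level. Chance gives about 1 in 20 where the 4 libraries vary alike, which the division between A and B and C and D goes against. MRH1 was at 395 CPM in mcd1-1 B and YRO2 at 242 CPM in the same library, and GIS1 was at 98.4 CPM in mcd1-1 A. None of the 10 genes was among them. Where A and B stand apart from C and D the widest gap lies in the middle, and the criterion can hardly flag a single library. The number of flags and the absence of the 10 genes therefore say little.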

How the results depend on the processing

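Of 180 fold changes of the 10 genes under other settings, 179 moved by less than 1 SD of the replicates. None of the called values changed sign. That SD contains the difference between A and B and C and D, so it is a loose measure of stability. BTN2, at 1.80 with all libraries and 3.27 within C and D, counted as unmoved, with an SD of log2 CPM of 2.07 in WT and 1.12 in mcd1-1. SIP18, at 3.90 and 2.62, did too. HSP104 moved to 0.89 with library size alone. The number of the 10 genes called higher was 4, but 7 with library size alone and 8 with the replicate block, with the A/B and C/D division as a block, and within either side of that division. The number called lower was 0, and 1 with the replicate block, with that other block and with C and D only. Over all genes, 1359 were called higher and 1291 lower, but 2460 and 550 with library size alone, 2207 and 2241 with the division as a block, 2287 and 2164 in A and B alone and 2549 and 2436 in C and D alone. The counts were 1927 and 1978 with the replicate block, 1528 and 1561 with DESeq2, 1739 and 915 with upper-quartile scaling and 1365 and 1296 with limma-voom. The list counts below stand beside these counts of all genes.

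In the Hsf1 list 2 were higher and 3 lower, but 4 higher with DESeq2, 4 and 1 with upper-quartile scaling, 9 and 0 with library size alone, 7 and 5 with the replicate block, 8 and 5 with the other block, 7 higher in A and B alone and 8 and 6 in C and D alone. The regulators (4 and 1) gave 7 and 0 with library size alone and 3 lower with C and D only. The partners (3 and 2) gave 5 higher with library size alone, either block and either side of the division, 1 lower with upper-quartile scaling or library size alone and 4 lower with C and D only. The paralogs and relatives (1 and 2) gave 3 higher with DESeq2, upper-quartile scaling or limma-voom, 4 with library size alone, either block or A and B alone, 5 and 4 in C and D alone, and 1 lower with upper-quartile scaling or library size alone. STREs in the longer form were in 3 and not 7 windows.

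Leaving out 1 library at a time gave 1163 to 1373 genes higher and 859 to 1249 lower, 4 to 6 of the 10 genes higher (6 without mcd1-1 D), 1 to 5 Hsf1 genes higher, 2 to 3 lower, 3 to 5 regulators higher, 0 to 1 lower, 3 to 4 partners higher and 0 to 3 paralogs and relatives higher. MSN2 was at -0.09 with C and D only. YNL190W, not called, was above 0 with upper-quartile scaling (0.10), library size alone (0.28), limma-voom (0.10), either block (0.08), A and B only (0.39) and leaving out WT C (0.26), WT D (0.18), mcd1-1 A (0.11) or mcd1-1 B (0.19), with a lowest value of -0.30 leaving out WT A. The cause of these changes was not tested. SIP18 had the smallest count of the 10 genes, 16 in 1 library.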
